A study of Homo sapiens with 12 samples.

Results

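The long noncoding RNAs NEAT1, MALAT1, PVT1 and LINC-PINT were followed through 6 lists of NONO binding peaks from 22Rv1, a human prostate cancer cell line. Every peak that the authors annotated to one of these 4 genes alone was taken. There were 58 such peaks of 26351 in all, on 4 of the 1679 gene names in the lists. NONO contacts were mapped by eCLIP, in which UV light (400 mJ) joins proteins to the RNA they touch, NONO is pulled down with an antibody, and the attached RNA is sequenced, as is an input library made without the pull-down. Cells were treated for 4 h with 20 µM SKBG-1(R) in 0.04% DMSO, with 20 µM SKBG-1(S) in 0.04% DMSO, or with 0.04% DMSO alone, and no genetic change separated the groups. SKBG-1(R) and SKBG-1(S) are the stereoisomers of a compound that the study's title places among small molecules aimed at NONO. Each treatment had 2 replicates, each an immunoprecipitation with its own input, so 12 libraries gave 6 peak lists. The labels mention several plates per condition but do not say whether the replicates were separate cultures, so the spread between them may be technical.

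NONO is a nuclear protein of the paraspeckle, and it pairs with its relatives SFPQ and PSPC1 to bind RNA and DNA. The long isoform of NEAT1 is the scaffold on which paraspeckles assemble, and NONO is needed for that assembly. MALAT1, the neighbour of NEAT1 on chromosome 11, is an abundant RNA of nuclear speckles. PVT1 is transcribed beside the MYC oncogene and is often amplified with it in cancer. LINC-PINT is a p53-induced RNA described as a tumour suppressor that interacts with the Polycomb repressive complex PRC2.

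The exonic peaks of NEAT1 and MALAT1, and 5 of the 12 exonic peaks of LINC-PINT, fell on the sequences that follow, given in the strand of the RNA with T for U, from GENCODE 29 transcripts on GRCh38. The LINC-PINT sequence is a first exon at chr7:131106271-131106398 on the minus strand. Its capitals (28 nt) mark bases inside peaks of 3 lists, both of SKBG-1(R) and DMSO replicate 2. Most of its lower-case bases also lay in peaks, but of fewer lists. Those from 131106271 to 131106328 were in peaks of SKBG-1(S) replicate 2 alone. Those from 131106332 to 131106356 were in SKBG-1(R) replicate 2 alone, and those from 131106357 to 131106370 in SKBG-1(R) replicate 2 and DMSO replicate 2.
LINC-PINT exon of 128 nt: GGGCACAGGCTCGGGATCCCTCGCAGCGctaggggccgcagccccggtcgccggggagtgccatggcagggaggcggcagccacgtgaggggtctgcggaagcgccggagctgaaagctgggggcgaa
The NEAT1 and MALAT1 windows show each peak in capitals with 20 nt on either side, because each of these RNAs had so few peaks that the sites themselves are the finding. The NEAT1 windows are chr11:65423804-65423875 and chr11:65424722-65424791, and the MALAT1 window is chr11:65502585-65502636, all on the plus strand. In MALAT1 the capitals are the 8 nt shared by the peaks of SKBG-1(S) replicate 1 and DMSO replicate 1.
NEAT1, SKBG-1(R) replicate 1: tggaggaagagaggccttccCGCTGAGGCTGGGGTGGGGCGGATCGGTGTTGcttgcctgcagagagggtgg
NEAT1, SKBG-1(S) replicate 1: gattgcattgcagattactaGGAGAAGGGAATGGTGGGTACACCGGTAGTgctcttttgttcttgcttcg
MALAT1, SKBG-1(S) replicate 1 and DMSO replicate 1: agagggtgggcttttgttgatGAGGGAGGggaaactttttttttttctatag
Most LINC-PINT peaks lay in introns, whose sequence was not used here.

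The lists differed widely in length, which bears on every count of peaks. They held 1953 and 14847 peaks after SKBG-1(R), 1237 and 3967 after SKBG-1(S), and 669 and 3678 after DMSO, so replicate 2 had the longer list in each group. Every peak was enriched at least 8.0-fold over input, and the depth of the libraries is unknown. The transcript of NONO itself and that of MYC had 0 peaks in each list. Transcripts of the epithelial markers SPDEF and GRHL2 had peaks, whereas 0 of 4 markers of blood cells and 0 of 5 of stroma and vessels did. A peak count is not a level of RNA, so these counts do not measure the makeup of the culture.

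LINC-PINT carried 50 of the 58 peaks and was the only one of these genes with enough of them (at least 10) to be tested. It had 12 and 18 peaks in the SKBG-1(R) lists, 4 and 12 in the SKBG-1(S) lists, and 0 and 4 in the DMSO lists. Per 10000 peaks of the list this was 61.4 and 12.1 after SKBG-1(R), 32.3 and 30.2 after SKBG-1(S), and 0 and 10.9 after DMSO. The 12.1 of SKBG-1(R) replicate 2, the longest list, was close to the 10.9 of DMSO replicate 2. In each comparison limma called 0% of tested genes. Bulk lysates were used, so contact in more cells and more contact per cell cannot be told apart. With 50 peaks LINC-PINT ranked 8 among 142 long noncoding RNA genes with any peak, and 123 among all 1679 names.

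The precision of these shares was set by the number of peaks. In SKBG-1(R) replicate 1 LINC-PINT made up 0.614% of the list (95% Wilson interval 0.352 to 1.07%), and in SKBG-1(R) replicate 2 it made up 0.121% (0.077 to 0.192%). The shares were 0.323% (0.126 to 0.828%) and 0.302% (0.173 to 0.528%) in the SKBG-1(S) lists. In DMSO replicate 1, 0 of 669 peaks allowed a share of up to 0.571%, and in DMSO replicate 2 the share was 0.109% (0.042 to 0.279%). The interval of DMSO replicate 1 thus overlapped those of all 4 compound lists, and its 0 is not distinguishable at this list length from the shares after SKBG-1(S). The intervals cover counting error only, and neighbouring peaks are not independent.

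**Figure D1:**
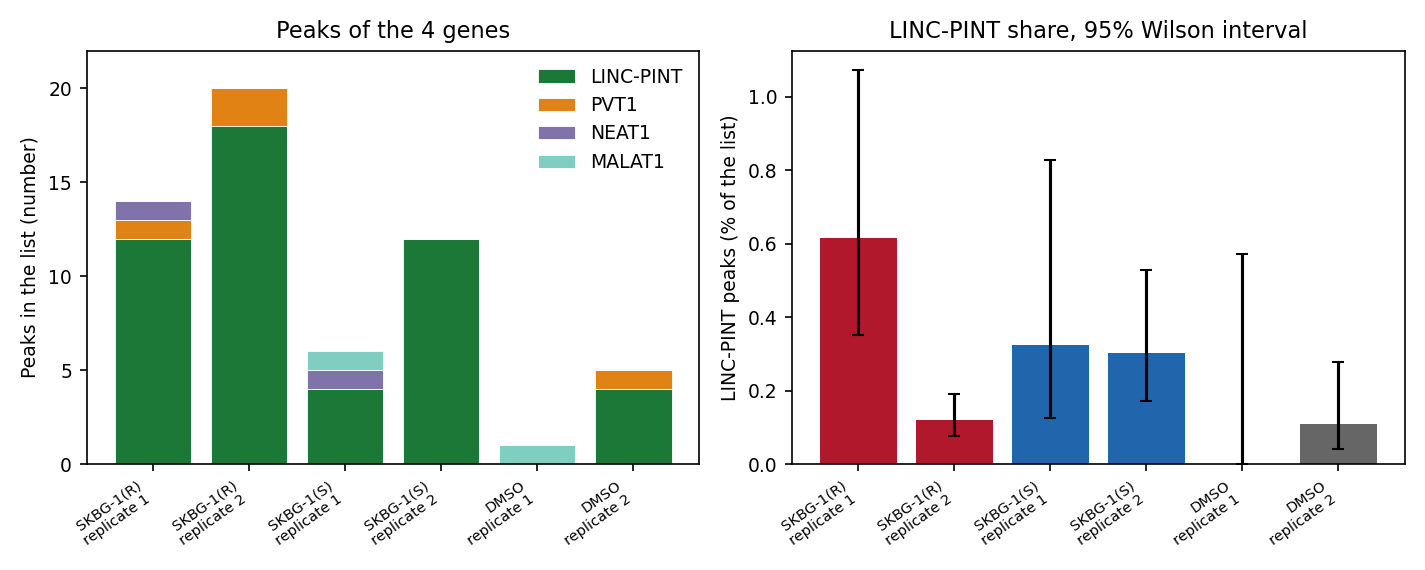
Left, stacked bars give the number of peaks on LINC-PINT, PVT1, NEAT1 and MALAT1 in each of the 6 lists. Right, bars give LINC-PINT peaks as a percentage of the list with 95% Wilson intervals: 0.614 and 0.121% after SKBG-1(R), 0.323 and 0.302% after SKBG-1(S), and 0 and 0.109% after DMSO.

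Among the 479 tested genes, 0 passed an adjusted p of 0.05 in any of the 3 comparisons (limma, Benjamini-Hochberg over the 479, percent called 0). At an unadjusted p under 0.05 there were 15, 7 and 5 genes for SKBG-1(R) against DMSO, SKBG-1(S) against DMSO and SKBG-1(R) against SKBG-1(S). On the log2 scale of peaks per 10000 with the prior count, LINC-PINT stood at 6.04 and 4.06 after SKBG-1(R), 5.20 and 5.12 after SKBG-1(S), and 2.19 and 3.95 after DMSO. SKBG-1(R) exceeded DMSO by 1.98 ± 1.09 (SE; 95% interval -0.27 to 4.24) on that scale, with a limma adjusted p of 0.991. SKBG-1(S) exceeded DMSO by 2.10 ± 1.09 (-0.16 to 4.35), with a limma adjusted p of 1. Neither difference passed the test, and 11 and 9 of the 479 genes had a more positive value in these comparisons. The median gene stood at 0.23 and 0.14. Both comparisons use the same DMSO lists.

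The stereoisomers themselves differed in LINC-PINT peaks by -0.11 ± 1.09 (SKBG-1(R) minus SKBG-1(S); 95% interval -2.36 to 2.14; limma adjusted p 0.995), near the median gene at -0.08. The interval holds differences of more than 4-fold either way, so the lists do not show that the compounds act alike on this RNA. The size of the differences from DMSO rested on single lists. Without DMSO replicate 1, the shortest list, SKBG-1(R) differed from DMSO by 1.13 and SKBG-1(S) by 1.25, and without DMSO replicate 2 the values were 2.90 and 3.02. Without SKBG-1(R) replicate 1 the difference of SKBG-1(R) from DMSO was 1.05, and without SKBG-1(R) replicate 2 SKBG-1(R) stood 0.81 above SKBG-1(S).

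**Figure D2:**
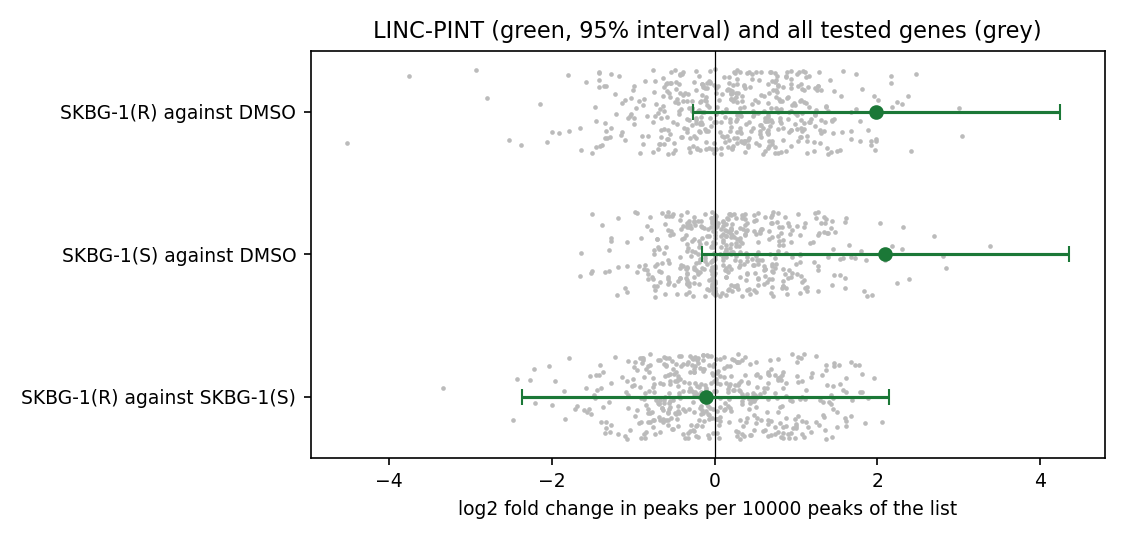
The log2 fold change in peaks per 10000 peaks of the list is drawn on the horizontal axis for 3 comparisons. Grey points are the 479 tested genes and the green point is LINC-PINT with its 95% interval, at 1.98, 2.10 and -0.11 from top to bottom; all 3 intervals cross 0.

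The LINC-PINT peaks fell in a single short span near the start of a long gene. The gene covers 171.2 kb (ENSG00000231721.7, chr7:130938963-131110176, minus strand), and the 50 peaks lay within 1243 nt (chr7:131105701-131106943), 3233 to 4475 nt from its 5′ end. That span is 0.73% of the gene. From the first peak to the last, those of the other 464 tested genes with a position spanned a median of 37.8% of their gene. Of the 464, 26 had a smaller share than LINC-PINT. Among 163 of these genes that are 100 kb or longer, the median was 29.6% and 24 had a smaller share. LINC-PINT was not unusual in lying near the 5′ end: its median peak position was 0.024 of the gene, against 0.078 for the long genes, of which 69 lay closer to the start.

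In annotation the peaks sat around alternative first exons. Of 22 LINC-PINT transcripts, 5 start in the span or just upstream of it, and 12 have an exon that ends further upstream at position 131107720, with the span 777 to 2019 nt past that splice site. The authors classed 38 of the peaks as intronic within 500 nt of a splice site and 12 as noncoding exon, with 0 in the deeper introns. Peaks in exons numbered 3 and 3 after SKBG-1(R), 1 and 4 after SKBG-1(S), and 0 and 1 after DMSO. A further 3 peaks (2 of SKBG-1(R) replicate 2, the other of SKBG-1(S) replicate 2) were annotated jointly to LINC-PINT and to the overlapping gene RP11-36B6.2. They are not among the 50 and lay outside the span of 1243 nt, which leaves them out. Their places were 2519 to 2539, 2587 to 2665 and 4508 to 4524 nt from the 5′ end. That gene lies on the same strand, so reads from the pair cannot be told apart.

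The number of peaks overstated the number of separate sites, because adjoining peaks were deposited end to end. Of the LINC-PINT peaks, 4 and 14 pairs abutted in the SKBG-1(R) lists, 1 and 7 in the SKBG-1(S) lists, and 0 and 0 in the DMSO lists. Across whole lists between 12.9 and 21.9% of peaks abutted the next. Joined end to end, the peaks formed 8 and 4 blocks after SKBG-1(R), 3 and 5 after SKBG-1(S), and 0 and 4 after DMSO. The bases covered were 508 and 731 nt after SKBG-1(R), 270 and 681 nt after SKBG-1(S), and 0 and 340 nt after DMSO.

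The lists met at the same bases. The 50 peaks covered 1006 nt in 5 stretches, of which 517 nt were in peaks of 3 or more lists. A stretch of 99 nt (chr7:131105984-131106082) was covered in all 5 lists that had any LINC-PINT peak, DMSO replicate 2 among them, and lay in the intron 189 to 287 nt past the end of the 128 nt exon. Closer to that exon, 65 to 134 nt past its end, 70 nt (chr7:131106137-131106206) were covered in all 4 compound lists and in neither DMSO list. Over all genes, 17534 nt were covered in all 4 compound lists, and 4270 of these (24.4%) were in no DMSO list; for LINC-PINT it was 70 of 169 nt (41.4%). DMSO replicate 1 has few peaks anywhere: 299 of the 479 tested genes (62.4%) had 0 peaks in it, and 70 (14.61%), LINC-PINT included, had peaks in the other 5 lists and none there.

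Every LINC-PINT base inside a peak of DMSO replicate 2 was also inside a peak of a compound list. The 340 nt of DMSO replicate 2 lay wholly inside peaks of SKBG-1(R) replicate 2, whereas over all genes 34.4% of the bases in DMSO replicate 2 were in no compound list. Of the 340 nt, SKBG-1(R) replicate 1 covered 66.5%, SKBG-1(S) replicate 1 covered 30.0% and SKBG-1(S) replicate 2 covered 76.8%. All 270 nt of SKBG-1(S) replicate 1 were inside peaks of SKBG-1(S) replicate 2, and 95.6% of them inside those of SKBG-1(R) replicate 1. The lists of SKBG-1(R) shared 336 nt, 66.1% of replicate 1 and 46.0% of replicate 2. Bases covered in both lists of 1 compound and in no list of the other or of DMSO came to 3 nt where that compound was SKBG-1(R) and 7 nt where it was SKBG-1(S).

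**Figure D3:**
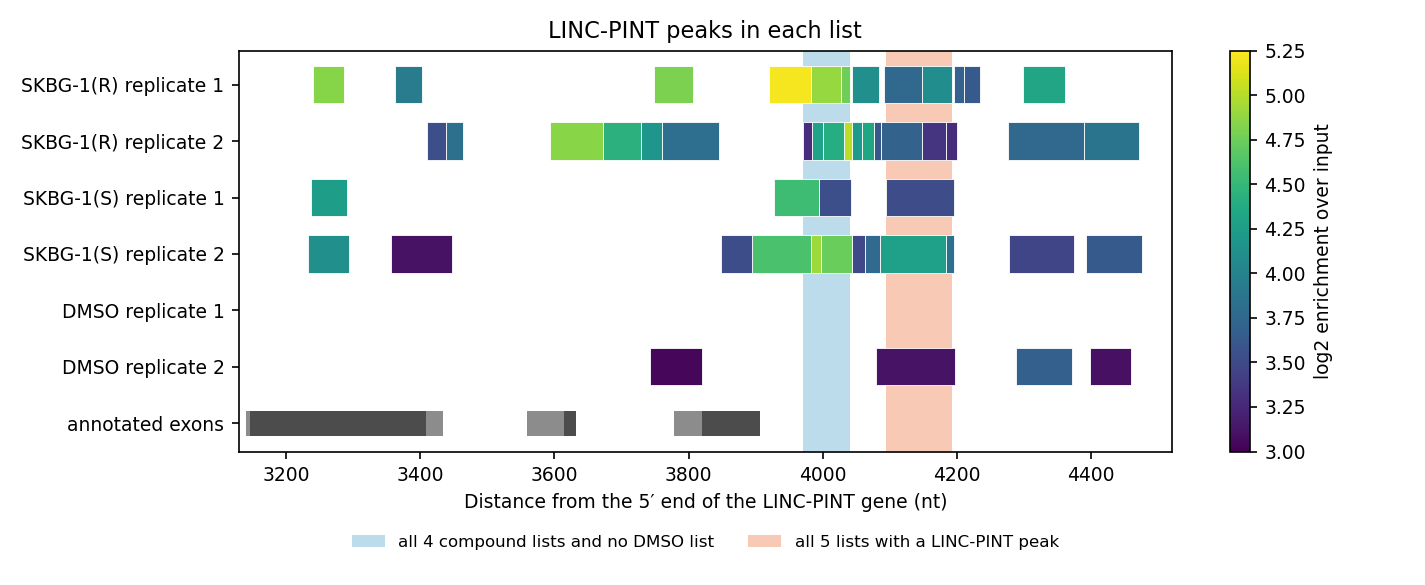
Each box is a LINC-PINT peak, placed by its distance in nt from the 5′ end of the gene and coloured by its log2 enrichment over input, with the 6 lists from top to bottom and annotated exons in grey (darker where exons overlap). The blue band (70 nt) is covered in all 4 compound lists and no DMSO list, and the orange band (99 nt) in all 5 lists with a LINC-PINT peak.

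The enrichment values, which are the authors' own and were read within each list, were also lower in DMSO replicate 2. The highest LINC-PINT log2 enrichment was 5.22 and 5.02 in the SKBG-1(R) lists, 4.55 and 4.92 in the SKBG-1(S) lists, and 3.68 in DMSO replicate 2. In each compound list this strongest peak overlapped the 70 nt stretch and had more enrichment than 90.4 to 97.7% of the list, against 58.7% for the strongest peak of DMSO replicate 2. The median LINC-PINT peak stood above 77.0 and 55.1% of the SKBG-1(R) lists, above 54.2 and 65.9% of the SKBG-1(S) lists, and above 10.0% of DMSO replicate 2. These percentiles are descriptions of 5 lists, with no test, and DMSO replicate 1 gives none.

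The shared stretches differed in strength. Over the 99 nt found in 5 lists, the mean log2 enrichment by base was 3.91 and 3.53 after SKBG-1(R), 3.51 and 4.23 after SKBG-1(S), and 3.11 in DMSO replicate 2. Over the 70 nt found in compound lists it was 4.92 and 4.23 after SKBG-1(R), and 3.89 and 4.75 after SKBG-1(S). The stretch without a DMSO peak was thus the stronger of the pair in each compound list. With peaks limited to a log2 enrichment of at least 4, the covered bases were 373 and 259 nt after SKBG-1(R), 120 and 308 nt after SKBG-1(S), and 0 and 0 nt after DMSO, and 10 nt were left in all 4 compound lists. No peak does not mean no binding: the lists hold only what passed an 8.0-fold enrichment.

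**Figure D4:**
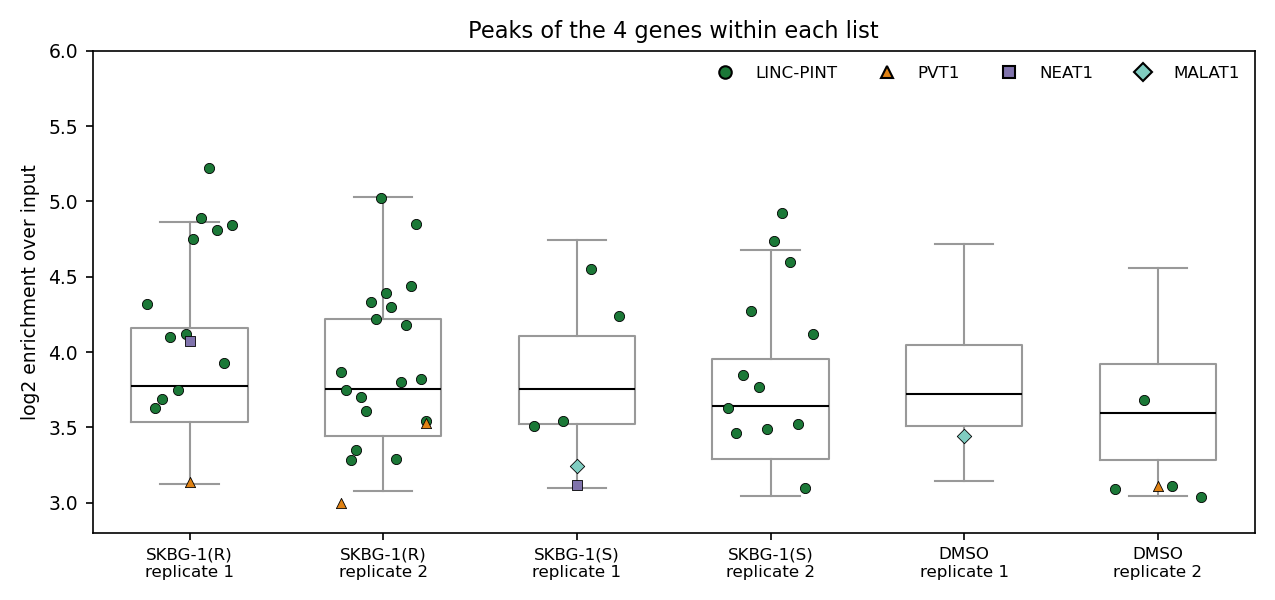
Symbols give the log2 enrichment over input of each peak of LINC-PINT, PVT1, NEAT1 and MALAT1 in its list; boxes give the quartiles and median of all peaks of that list and whiskers the 5th and 95th percentiles. LINC-PINT peaks reach 5.22 and 5.02 after SKBG-1(R), and 3.68 in DMSO replicate 2, where 3 of its 4 peaks lie near the lower whisker.

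The other RNAs gave 8 peaks in all. None had the 10 needed for a test, and in 7 of the 8 the enrichment was below the median of the list. They differed in where the peaks fell, with those of NEAT1 and MALAT1 in the exon and those of PVT1 in introns.

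NEAT1, the paraspeckle scaffold (ENSG00000245532.8, chr11:65422774-65445540, plus strand, 22.8 kb), had 1 and 0 peaks after SKBG-1(R), 1 and 0 after SKBG-1(S), and 0 and 0 after DMSO. The SKBG-1(R) replicate 1 peak (chr11:65423824-65423855, 32 nt) had a log2 enrichment of 4.07 and a −log10 p of 5.05, above 69.5% of its list. The SKBG-1(S) replicate 1 peak (chr11:65424742-65424771, 30 nt) had 3.12 and 4.42, above 5.3% of its list. They lay 1050 to 1081 and 1968 to 1997 nt from the 5′ end and shared no base. Both were in the shorter list of their group, and the lists of 14847, 3967 and 3678 peaks had none. With 0 of 14847 peaks in SKBG-1(R) replicate 2, the share could be up to 0.026% (Wilson). Both places belong to the 5′ part that the short and long isoforms have in common, so the isoforms cannot be told apart.

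MALAT1 (ENSG00000251562.8, chr11:65497688-65506516, plus strand, 8.8 kb) had 0 and 0 peaks after SKBG-1(R), 1 and 0 after SKBG-1(S), and 1 and 0 after DMSO. The peaks of SKBG-1(S) replicate 1 (chr11:65502605-65502616, 12 nt) and DMSO replicate 1 (chr11:65502606-65502613, 8 nt) fell on the same bases, 4917 to 4928 nt from the 5′ end. Their log2 enrichments were 3.24 and 3.44, above 10.4 and 16.0% of their lists, while their −log10 p of 11.93 and 10.16 were above 93.8 and 93.3%. They came from the 2 shortest lists of the series.

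PVT1 (ENSG00000249859.9, chr8:127794533-128101253, plus strand, 306.7 kb), the longest of these genes, had 1 and 2 peaks after SKBG-1(R), 0 and 0 after SKBG-1(S), and 0 and 1 after DMSO. The SKBG-1(R) peaks were at chr8:127864150-127864314 in replicate 1, and at chr8:127852856-127852939 and chr8:127855622-127855656 in replicate 2. The DMSO replicate 2 peak was at chr8:127909655-127909819. No 2 of them overlapped, and they were spread from 58.4 to 115.2 kb from the 5′ end. Their log2 enrichments were 3.14, 3.00 and 3.53 after SKBG-1(R) and 3.11 after DMSO, against a deposited minimum of 3. The peak at 127855622 was within 500 nt of a splice site and the other 3 were deeper in introns.

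**Figure D5:**
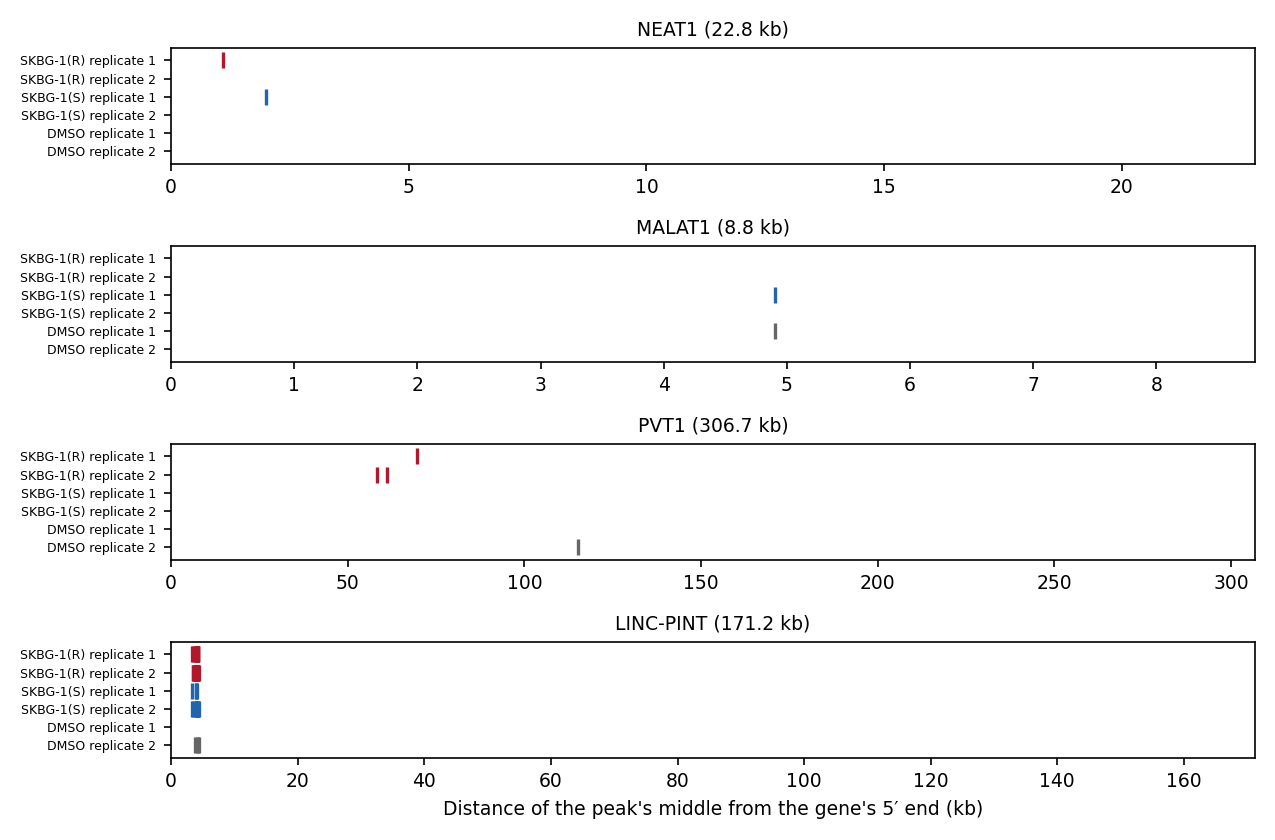
Ticks mark the middle of each peak by its distance in kb from the 5′ end of NEAT1, MALAT1, PVT1 and LINC-PINT, with 1 line per list and each gene drawn to its own scale. LINC-PINT peaks crowd into 1243 nt, the MALAT1 peaks coincide, and those of NEAT1 and PVT1 do not overlap between lists.

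Joining peaks that share at least 1 nt gave 17 separate regions on these genes, of which 7 were in 2 or more lists: 6 of the 10 in LINC-PINT, the 1 in MALAT1, and neither the 2 in NEAT1 nor the 4 in PVT1. The most widely shared LINC-PINT region (chr7:131105967-131106282, 316 nt) joined 28 peaks of 5 lists and holds both shared stretches. Next came chr7:131105788-131105900, with 4 peaks of 4 lists.

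Of 38 nuclear long noncoding RNAs listed, NEAT1, MALAT1, PVT1 and LINC-PINT among them, 7 had any peak, the other 3 being DLEU2, LINC00511 and FTX. The 3 tested were LINC-PINT, DLEU2 and LINC00511, with 0 called in each comparison (limma; 0% of all tested genes). Their median log2 fold change was 0.91 for SKBG-1(R) against DMSO, 0.75 for SKBG-1(S) against DMSO and -0.11 for SKBG-1(R) against SKBG-1(S), with medians of 0.23, 0.14 and -0.08 over all tested genes. DLEU2, the host transcript of miR-15a and miR-16-1, had 6 and 26 peaks after SKBG-1(R), 10 and 26 after SKBG-1(S), and 3 and 14 after DMSO. LINC00511 had 5 and 29 after SKBG-1(R), 0 and 4 after SKBG-1(S), and 0 and 15 after DMSO. FTX, a regulator of X inactivation in mouse, had 2 peaks, 1 in SKBG-1(S) replicate 1 and 1 in DMSO replicate 2. Of 21 long noncoding RNAs linked to prostate cancer, 3 had peaks, and these were NEAT1, MALAT1 and PVT1.

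Genes tied to these RNAs were also looked at. Of 36 transcripts of paraspeckle proteins, 11 had peaks and 8 were tested, with 0 called and median log2 fold changes of 0.00, 0.36 and -0.68 in the same order of comparisons. Of 20 neighbours and regulators, 4 had peaks, among them NEAT1 and MALAT1 as each other's neighbours. CDKN1A, which encodes the p53 target p21, had 0 and 4 peaks after SKBG-1(R), 0 and 1 after SKBG-1(S), and 0 and 0 after DMSO. EZH2, the catalytic subunit of PRC2, had 1 and 1 after SKBG-1(R), 4 and 3 after SKBG-1(S), and 0 and 3 after DMSO. It was the only tested gene of that list, with log2 fold changes of -0.10, 1.47 and -1.57 (limma adjusted p 0.991, 1 and 0.995).

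Likeness to LINC-PINT over the 6 lists was taken on the log2 scale of peaks per 10000 with the prior count. The closest tested genes were TRIO (Pearson r 0.988), GTF2I (0.980) and ZNF710 (0.962). These values are descriptions of 6 lists of shared lengths. TRIO, a guanine nucleotide exchange factor, had 6 and 7 peaks after SKBG-1(R), 2 and 7 after SKBG-1(S), and 0 and 2 after DMSO. GTF2I, a general transcription factor, had 3 and 4 after SKBG-1(R), 1 and 3 after SKBG-1(S), and 0 and 1 after DMSO. ZNF710, a zinc finger protein, had 3 and 5 after SKBG-1(R), 1 and 2 after SKBG-1(S), and 0 and 1 after DMSO. These genes were picked for that likeness, so their pattern is no further evidence.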

How the data were processed

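NONO eCLIP of 22Rv1 cells was analysed from 6 deposited peak lists, 1 per replicate, each called for an immunoprecipitation against its own input. Groups and replicate numbers come from the sample titles. The submitters' processing notes name cutadapt 1.9, STAR 2.4.0i, hg19 and hg38. How peaks were called is not given in the sources used here. Deposited for each peak are a −log10 p and a log2 enrichment over input, both made by the authors, with minima of 3. Coordinates are GRCh38: 9797 of 9850 transcripts (99.5%) matched GENCODE 29. Read depth is unknown.

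Peaks per gene, scaled to 10000 peaks of the list with a prior count of 2, were tested on the log2 scale by limma 3.58.1 (R 4.3.3) with a prior variance that follows the mean. The fit took all 6 lists and 479 genes with at least 10 peaks, with two-sided Benjamini-Hochberg adjusted p-values at 0.05. Other values were computed in Python 3.11.15 and pandas 2.3.3. The test was tried on simulated data, but the outcome of that trial is not reported here and backs none of the results. Alternatives were other scalings, limits, filters, prior counts, a replicate block and leaving out each list.

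The genes, lists and tests were chosen with earlier results of these data known. Genes named are the 4 RNAs, NONO, the 3 tested genes most like each tested RNA, and the listed noncoding RNAs and neighbours with any peak; MYC and the marker genes were named after their values were seen. Some items, a planned motif search among them, are not reported here.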

Additional observations from a re-analysis of the deposited data

How the results depend on the processing

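LINC-PINT stayed above DMSO, and short of an adjusted p of 0.05 (limma), under all 22 alternatives: by 1.05 to 2.96 on the log2 scale for SKBG-1(R) (adjusted p 0.0787 to 1) and by 1.25 to 3.13 for SKBG-1(S) (0.297 to 1). The unadjusted p was under 0.05 in 4 and 5 of them. SKBG-1(R) minus SKBG-1(S), -0.11 as reported, ranged from -1.12 to 0.81 with 1 list left out and changed sign with no scaling (0.87), per 100 kb of peak width (0.04) and with lists cut to 669 peaks (0.13). Without scaling the median gene moved to 1.10, 0.21 and 0.75 in the 3 comparisons, and relative to it LINC-PINT stood at 1.17, 1.19 and 0.12. The cause of these changes was not tested.

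For SKBG-1(R) against DMSO, 1 gene, not LINC-PINT, was called per 100 kb of width, by summed width, with at least 5 peaks, with a prior count of 1, with joint annotations and with the replicate block, where 0 were called as reported; leaving out 1 list gave 0 to 23. For SKBG-1(R) against SKBG-1(S) leaving out 1 list gave 0 to 23. All 23 calls in each came without SKBG-1(R) replicate 1. A group left with 1 list was assumed to vary like the others. Same-numbered lists deviated together (correlations of 0.42 to 0.57 over 479 genes), but with 2 numbers per group this does not establish pairs. With the replicate block LINC-PINT kept its values of 1.98, 2.10 and -0.11, with unadjusted 95% intervals of 0.09 to 3.88, 0.20 to 4.00 and -2.01 to 1.79 and adjusted p of 0.581, 0.937 and 0.982 (limma).

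LINC-PINT peak numbers were 6 and 7, 2 and 6, and 0 and 4 as regions merged over all lists, 8 and 8, 2 and 5, and 0 and 0 at a log2 enrichment of at least 4, and 8 and 3, 4 and 5, and 0 and 0 with lists cut to equal size, in SKBG-1(R), SKBG-1(S) and DMSO. Regions in 2 or more lists numbered 4 at a log2 enrichment of at least 4, against 7 as reported, and 6 to 8 with a list left out. At that limit NEAT1 kept 1 peak, MALAT1 0 and PVT1 0; with lists cut to equal size MALAT1 kept both of its peaks, NEAT1 0 and PVT1 0; at a −log10 p of at least 5 NEAT1 kept 1, MALAT1 both and PVT1 1. The number of peaks, as low as 669, limits what the lists can show.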
